A study of Mus musculus with 5 samples.

Results

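PIT1, the pituitary POU homeodomain factor encoded by Pou1f1, was examined together with 5 genes of the lineage that depends on it: the hormone genes Tshb, Prl and Gh and the receptor genes Ghrhr and Trhr. The 6 genes were taken by name from an RNA sequencing table of 21476 entries, of which 21437 genes were used, and all 6 were found. The table gives RPKM, reads divided by the length of the gene model and by the size of the library, for 5 mouse cell lines. NIH3T3 is an embryonic fibroblast line of Swiss mice and serves as a non-pituitary control. The labels call αT1–1, αT3–1 and LβT2 immature, intermediate and mature gonadotrope lines. The study describes αT1–1 as a progenitor of the gonadotrope lineage, the thyrotrope lineage or both. TαT1 is a thyrotrope line labelled mature. These 4 pituitary lines came from tumors of CB6F1/J mice carrying a transgene for SV40 T-antigen, so T-antigen immortalization is common to all of them. The sources used here do not name the promoter that drove the transgene, the ages of the mice, or whether a line is a single clone. All 5 lines were grown untreated in the same serum-containing medium and harvested before confluence.

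The methods name replicate libraries, but the table has 1 column per line and the sources used here do not say how it was made from them. Spread between replicates could therefore not be measured, and lines were compared without a test. The low values of a column are whole multiples of a step, from which read totals of 14.2 to 20.7 M (M, 1000000 reads) per column were recovered, with 18.8 M in TαT1. Intervals of levels are exact 95% Poisson intervals of recovered reads and those of ratios are exact binomial intervals. Neither covers more than counting error. Where a line had no reads, 3 reads were put in as a floor, and the fold over it is written as "at least". Such a fold leaves out the counting error of the higher line, and the upper limit of no reads lies somewhat above the floor. In a bulk sample, fewer cells with a transcript and less transcript per cell cannot be told apart.

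PIT1 acts in thyrotropes, somatotropes and lactotropes, where it binds the promoters and enhancers of the TSH β subunit, growth hormone and prolactin genes, while gonadotropes and corticotropes arise without it. Once its gene is switched on in the embryonic pituitary, PIT1 sustains it through an enhancer. The releasing-hormone receptors of these cells, for GHRH in somatotropes and TRH in thyrotropes and lactotropes, lie downstream of PIT1 as well.

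The promoters of Prl, Pou1f1 and Tshb are shown. They are the 3 of the 6 genes matched in the promoter table, and also the 3 highest in TαT1. RefSeq sequences of the GRCm38.p6 build run from 250 bases before to 50 bases after the annotated start, 5′ to 3′ on the gene's strand. Capitals mark TATNCAT on either strand, the core of the element that PIT1 is known to bind. On the opposite strand it reads ATGNATA. Prl is on the plus strand (chr13:27057320-27057619), Pou1f1 on the plus strand (chr16:65520262-65520561) and Tshb on the minus strand (chr3:102782665-102782964).
Prl: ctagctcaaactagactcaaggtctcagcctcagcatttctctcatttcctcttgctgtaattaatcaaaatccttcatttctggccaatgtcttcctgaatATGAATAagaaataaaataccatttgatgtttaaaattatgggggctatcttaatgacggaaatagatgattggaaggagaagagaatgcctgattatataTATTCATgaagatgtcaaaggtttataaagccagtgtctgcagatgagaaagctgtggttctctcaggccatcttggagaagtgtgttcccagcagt
Pou1f1: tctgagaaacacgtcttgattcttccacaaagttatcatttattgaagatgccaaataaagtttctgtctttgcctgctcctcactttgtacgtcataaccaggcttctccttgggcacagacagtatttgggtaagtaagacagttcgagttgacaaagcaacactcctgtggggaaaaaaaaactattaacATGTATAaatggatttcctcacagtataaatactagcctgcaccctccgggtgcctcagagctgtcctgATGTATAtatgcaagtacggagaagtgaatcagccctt
Tshb: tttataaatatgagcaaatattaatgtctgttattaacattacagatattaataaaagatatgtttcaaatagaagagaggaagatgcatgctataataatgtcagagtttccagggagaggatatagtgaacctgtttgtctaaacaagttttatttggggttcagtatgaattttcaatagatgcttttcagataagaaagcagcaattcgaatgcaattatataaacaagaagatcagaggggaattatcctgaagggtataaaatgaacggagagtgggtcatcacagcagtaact

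TATNCAT was present in 8.84% of the 32851 mouse promoter windows of the same length. The Prl window held 2 matches, at −148 to −142 and at −47 to −41 from the start, and TATAAA at −24 to −19 and, on the opposite strand, at −26 to −21. The Pou1f1 window also held 2 matches, at −57 to −51 and at 13 to 19, of which the upstream match overlaps a TATAAA at −54 to −49. A second TATAAA of the Pou1f1 window lies at −33 to −28. A further annotated start of Pou1f1, inside the gene, had no match in its window. The Tshb window held no TATNCAT, and so no capitals, but 5 matches of GATA (on either strand, in 57.9% of all windows), where the Prl and Pou1f1 windows held 1 each. It also held 4 matches of TATAAA (on either strand, in 13.6% of windows), at −250 to −245 on the opposite strand and at −248 to −243, −27 to −22 and 12 to 17 on the strand of the gene. These are matches of letters in a window and not measured binding.

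Pou1f1 (ENSMUSG00000004842.18, chromosome 16, 65520511 to 65535005, plus strand, GRCm38) was read at 88.0 RPKM in TαT1, 3.21 RPKM in αT1–1, 0.0612 RPKM in LβT2 and 0 in αT3–1 and NIH3T3. In reads these are 1453, 57, 1, 0 and 0. The TαT1 line was thus high, αT1–1 low but well above 0, and the remaining 3 lines at or next to no reads. TαT1 held 96.4% of the RPKM summed over the 5 lines, and there Pou1f1 ranked 931 by RPKM. TαT1 exceeded αT1–1 by a ratio of 27.4 (interval 21.0 to 36.3). The αT1–1 level in turn was 52.6 times that in LβT2 (9.06 to 2112), and over αT3–1 it was at least 19.4-fold higher. So the order TαT1, αT1–1, then the other lines exceeded counting error, whereas LβT2, αT3–1 and NIH3T3 could not be ranked at this depth. The gene length that turned all values into whole reads was 876 bp, which equals the coding length of an annotated Pou1f1 transcript. Gm49631, a noncoding RNA gene annotated on the opposite strand from 65520284 to 65526171, shares 136 exon bases with Pou1f1 and 10.3% of the stretches of read length in its coding sequences. The library kit does not mark strand, so reads of those bases cannot be told apart between the 2 genes.

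Among the hormone genes, Prl was the highest member in any line. It encodes prolactin, the hormone of lactotropes (ENSMUSG00000021342.14, chromosome 13, 27057570 to 27065205, plus strand), and was read at 108 RPKM in TαT1, 0.0601 RPKM in LβT2 and 0 in NIH3T3, αT1–1 and αT3–1. The TαT1 value rests on 1819 reads (103 to 113 RPKM) and the LβT2 value on 1 read. Prl was therefore a gene of a single line here, with 99.9% of its summed RPKM in the line labelled thyrotrope, where it ranked 720. Its level in TαT1 was at least 651-fold higher than the floor in αT1–1, at least 666-fold higher than in αT3–1 and at least 458-fold higher than in NIH3T3. Against the single LβT2 read the ratio was 1801 (323 to 71175).

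Tshb encodes the β subunit that makes TSH specific and lies on the minus strand of chromosome 3 (ENSMUSG00000027857.10, 102775465 to 102782718). It was read at 58.5 RPKM in TαT1, 0.383 RPKM in αT1–1, 0.166 RPKM in LβT2, 0.0749 RPKM in αT3–1 and 0 in NIH3T3. The TαT1 value rests on 711 reads (54.3 to 62.9 RPKM), and αT1–1, LβT2 and αT3–1 had 5, 2 and 1 reads. TαT1 again stood apart, with 98.9% of the summed RPKM and rank 1562, and was 153-fold above αT1–1 (65.1 to 472). The other lines could not be ordered: αT1–1 was 2.30-fold LβT2 (0.377 to 24.2) and 5.11-fold αT3–1 (0.572 to 242), intervals that include no difference. In RPKM, which is per length, Prl in TαT1 exceeded Tshb, the hormone gene that names the line, and Pou1f1 lay between them.

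Gh, the growth hormone gene of somatotropes (ENSMUSG00000020713.6, chromosome 11, 106300271 to 106301865, minus strand), was read at 1.57 RPKM in TαT1, 0.331 RPKM in LβT2 and 0 in the other 3 lines. These are 24 reads (1.01 to 2.34 RPKM) and 5 reads (0.107 to 0.772 RPKM). Gh was highest in TαT1, the line with the highest Pou1f1, yet far below Prl and Tshb there, at rank 10101, and it had 0 reads in αT1–1, which also had Pou1f1 reads. The ratio of TαT1 to LβT2 was 4.75 (1.78 to 15.9). TαT1 was at least 8.59-fold higher than the floor in αT1–1 and at least 8.78-fold higher than in αT3–1. LβT2, with 1 Pou1f1 read, and αT1–1, with 57, could not be ordered in Gh. Their intervals of 0.107 to 0.772 RPKM and 0 to 0.225 RPKM overlap.

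The receptor genes went different ways. Trhr, the receptor for TRH (ENSMUSG00000038760.14, chromosome 15, 44196135 to 44235912, plus strand), was read at 2.99 RPKM in TαT1 and at 0 in the other 4 lines. With a value in a single line its length could not be determined, and 213 to 3763 bp, or 12 to 212 reads, would give whole reads. Trhr was thus detected in the thyrotrope line alone, at 1.54 to 5.22 RPKM with the fewest reads possible and 2.60 to 3.42 RPKM with the most. With the fewest, TαT1 was at least 4.30-fold higher than the floor in αT1–1, and with the most at least 75.9-fold higher. Trhr2, the second TRH receptor of the mouse, was listed at 0 in all 5 lines.

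Ghrhr, the receptor for GHRH (ENSMUSG00000004654.6, chromosome 6, 55376295 to 55388530, plus strand), was read at 0.393 RPKM in αT3–1, 0.201 RPKM in LβT2 and 0 in TαT1, αT1–1 and NIH3T3. The reads numbered 13 (0.209 to 0.672 RPKM) in αT3–1 and 6 (0.0738 to 0.438 RPKM) in LβT2. Ghrhr was the only one of the 6 genes not highest in TαT1, where 3 reads would have been 0.0996 RPKM. αT3–1 was at least 3.95-fold higher than the TαT1 floor and at least 4.24-fold higher than that in αT1–1, while αT3–1 and LβT2 did not differ beyond counting error (1.95-fold, 0.693 to 6.27). The 2 lines with Ghrhr reads were the lines with Gnrhr, the GnRH receptor gene, at 206 RPKM in αT3–1 and 72.3 RPKM in LβT2.

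**Figure D1:**
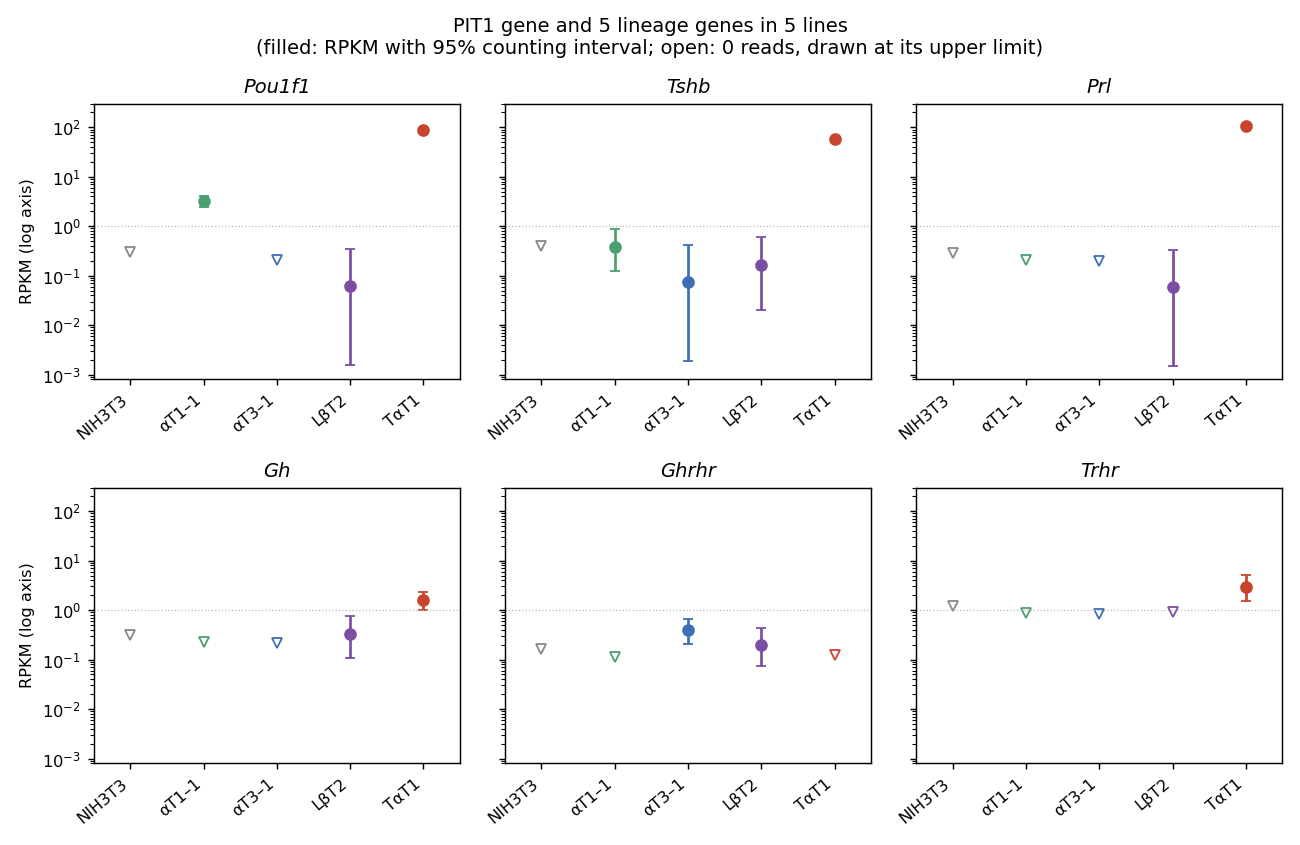
RPKM on a log axis (vertical) of the 6 genes in the 5 lines (horizontal). Filled points are deposited values with 95% Poisson intervals of the recovered reads, and open triangles are lines with 0 reads, drawn at the upper limit that 0 reads allow. For Trhr the shortest possible length was used. Pou1f1, Tshb, Prl, Gh and Trhr are highest in TαT1, Pou1f1 is also above 1 RPKM in αT1–1 (dotted line at 1 RPKM), and Ghrhr has reads in αT3–1 and LβT2.

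To place the 6 genes among all genes, differences of log2(RPKM + 1) between TαT1 and each other line were counted at 2 or more (4-fold) among genes at 1 RPKM or more in either line. This scale understates the change of low genes, and the 4 comparisons share the TαT1 column. Against αT1–1, 5 of the 6 genes reached 1 RPKM, 3 were higher (Prl, Tshb and Pou1f1) and none lower, where 1.84% of 11464 genes were higher and 1.77% lower. The differences were 6.77 for Prl, 5.43 for Tshb and 4.40 for Pou1f1, at ranks 3, 7 and 19 from the top. Against αT3–1, 3 of the same 5 genes were higher and none lower, beside 3.37% and 6.93% of all genes, and against LβT2 also 3 and none, beside 5.5% and 6.55%. The count against NIH3T3 was again 3 higher and none lower, beside 12.9% and 7.89%. In each of the 4 comparisons the 3 higher genes were Pou1f1, Tshb and Prl, also when levels were scaled to Actb. That scaling turned the counts of all genes higher and lower from 211 and 203 to 167 and 278 against αT1–1, from 408 and 840 to 273 and 1516 against αT3–1, from 665 and 792 to 509 and 1342 against LβT2, and from 1517 and 931 to 2165 and 547 against NIH3T3. Trhr, with a difference of 1.996, fell just short of the limit in each, and Gh was at 0.95 against LβT2 and 1.36 against the others. The median difference over all 6 genes, Ghrhr included, was 3.20 against αT1–1, 3.89 against αT3–1, 3.83 against LβT2 and 3.95 against NIH3T3. Over the 5 of them at 1 RPKM or more it was 4.40, 5.79, 5.67 and 5.89. The medians over all genes at 1 RPKM or more in either line were 0.05, 0.06, −0.08 and 0.28.

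**Figure D2:**
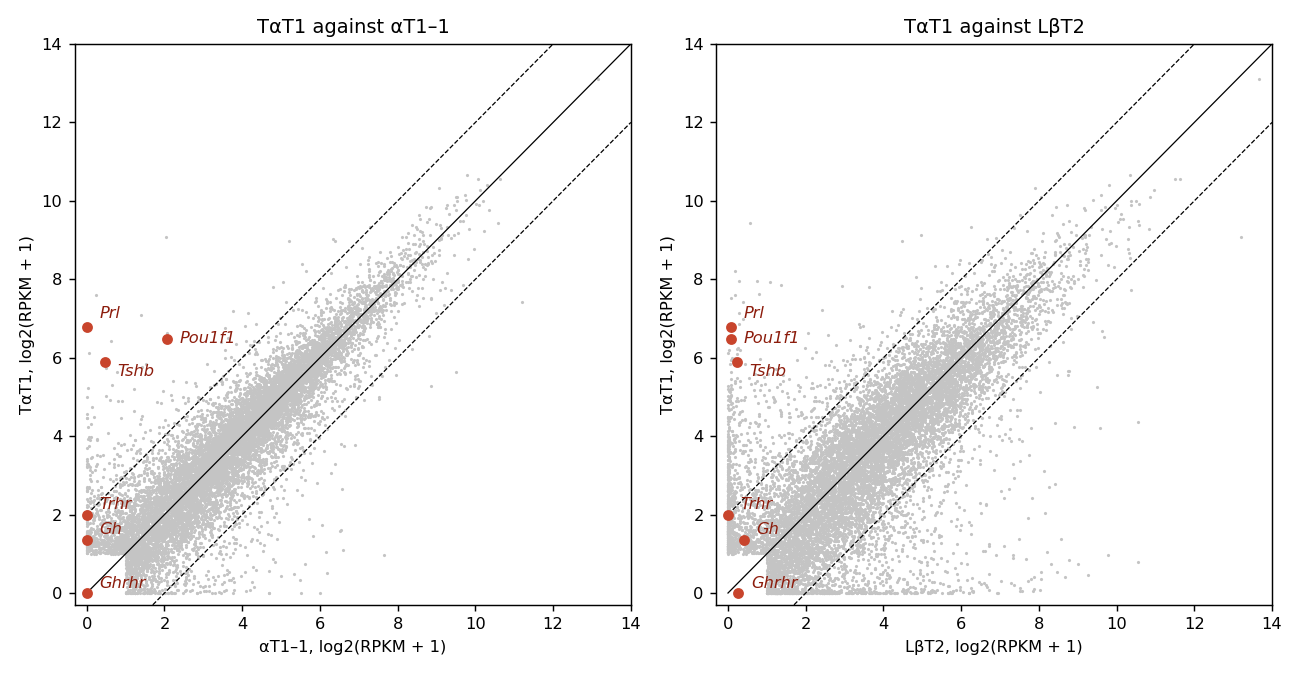
Each grey point is a gene at 1 RPKM or more in either line, with log2(RPKM + 1) in TαT1 (vertical) against αT1–1 (left) or LβT2 (right). The solid line marks equal levels and the dashed lines a difference of 2. Prl, Tshb and Pou1f1 (red) lie far above the upper dashed line in both panels, Trhr lies on it at 1.996, and Gh and Ghrhr lie between the lines.

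Restriction to TαT1 was counted separately, as a level from 10 RPKM in TαT1 with less than 1 RPKM in each of the other 4 lines. Of 6104 genes at 10 RPKM or more in TαT1, 19 (0.311%) met this, and Prl and Tshb were among them, in places 2 and 4 by RPKM. The highest was Thy1, which encodes a cell surface glycoprotein (191 RPKM), and the third Tmem59l (68.2 RPKM). Pou1f1 was not restricted by this rule because of its 3.21 RPKM in αT1–1.

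The genes whose levels over the 5 lines were most like those of Pou1f1, Tshb and Prl were found by Euclidean distance on log2(RPKM + 1), a description over 5 columns. For Pou1f1 the nearest gene was the T-box factor gene Tbx2 at a distance of 1.52, followed by AW551984 (1.55), the calcitonin gene Calca (1.67), Tshb (1.72) and Arhgdig (1.77). Tbx2 was read at 7.52 RPKM in αT1–1 and 55.9 RPKM in TαT1, and Calca at 5.11 and 30.5 RPKM. Like Pou1f1, these 2 genes were at several RPKM in αT1–1 and under 1 RPKM in αT3–1, LβT2 and NIH3T3. For Tshb the nearest were AW551984 (0.44), Tmem59l (0.55), A730017C20Rik (0.80), Vegfc (0.89) and AI662270 (1.01). For Prl they were Tmem59l (0.71), Thy1 (0.85), Tshb (1.01), AW551984 (1.39) and Sfrp2 (1.45). The distance between Tshb and Prl was smaller than that of either from Pou1f1 (1.72 and 2.10), and Gh was nearest to Trhr (0.76).

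**Figure D3:**
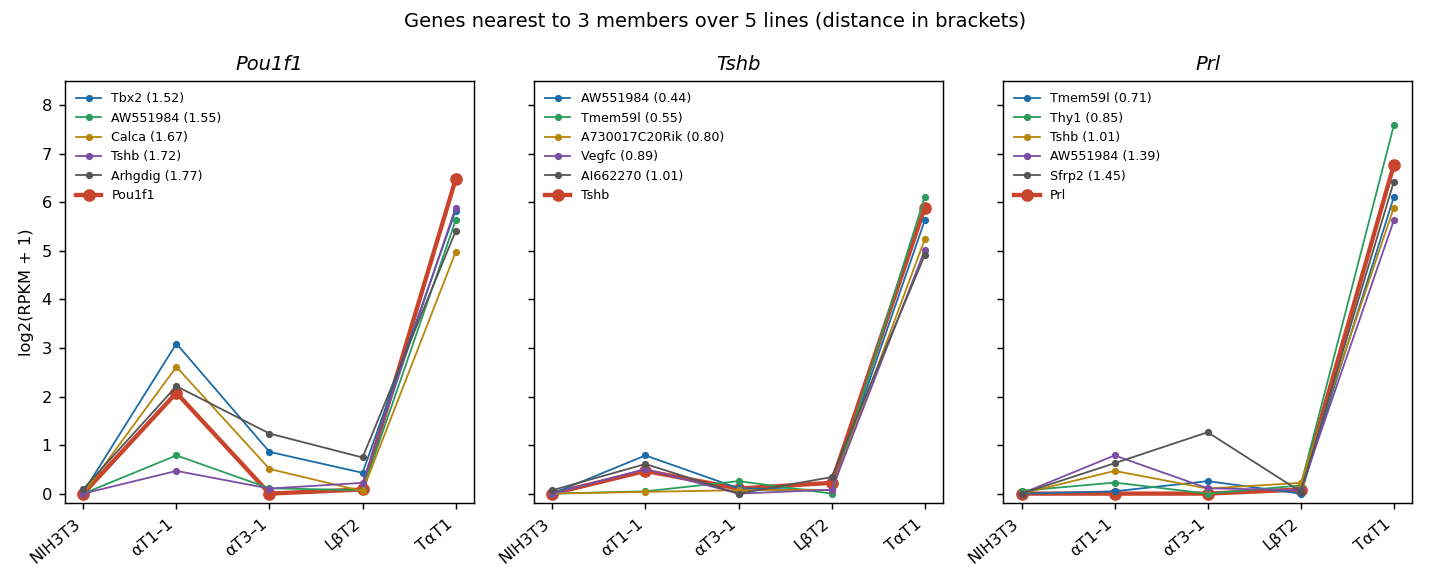
log2(RPKM + 1) (vertical) over the 5 lines (horizontal) for Pou1f1, Tshb and Prl (thick red) and the 5 genes nearest to each, with the distance in brackets. Connecting lines only join the values of a gene. The neighbours of Pou1f1 named Tbx2, Calca and Arhgdig share its second, lower level in αT1–1, and the genes nearest to Tshb and Prl are under 1 RPKM outside TαT1, except Sfrp2, which is at 1.40 RPKM in αT3–1.

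Of the regulators known to act before or above PIT1, 11 of 20 listed genes reached 1 RPKM in TαT1 or αT1–1, the lines with the most Pou1f1 reads. None of the 11 differed 4-fold between these 2 lines. Among all genes at that level 1.84% were higher and 1.77% lower in TαT1, so none of 11 was near the share of all genes. Sox2 and Otx2, factors of the early pituitary, were listed at 0 in all 5 lines, and Hesx1, an early repressor, was at 0.236 RPKM or less. Lhx3, a LIM homeodomain factor that cooperates with PIT1, was at 100.1 RPKM in αT1–1, 67.3 RPKM in TαT1, 24.9 RPKM in αT3–1 and 28.3 RPKM in LβT2. Pitx1, a paired-like factor of the early pituitary, ranged from 100.4 to 398 RPKM in the pituitary lines. Neither followed the pattern of Pou1f1, since both were high in αT3–1 and LβT2 too.

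Among the upstream genes, Sox3 separated αT1–1 and TαT1 from the other pituitary lines. Sox3, a progenitor factor, was at 53.6 RPKM in αT1–1, 31.8 RPKM in TαT1 and 0 in αT3–1 and LβT2. Hes1, a Notch target gene, was at least 4-fold higher on the log2(RPKM + 1) scale in TαT1 (5.67 RPKM) than in αT3–1 (0.0333 RPKM), and Six6, a homeodomain factor, was lower in TαT1 (0.0268 RPKM) than in LβT2 (6.56 RPKM). Of these 3 genes, Sox3 alone was above 1 RPKM in both lines with the most Pou1f1 reads and in no other line.

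The partners and cofactors of PIT1 were read next. Gata2, which acts with PIT1 on the Tshb promoter, was at 51.7 RPKM in TαT1, 25.9 RPKM in αT1–1, 78.8 RPKM in LβT2, 1.42 RPKM in αT3–1 and 2.73 RPKM in NIH3T3. It was thus highest in LβT2, where Tshb had 2 reads. Of 19 partners at 1 RPKM or more, none differed 4-fold between TαT1 and αT1–1, with a median difference of −0.25. Against αT3–1, Gata2 and Cebpa were higher and Neurod4 and Zbtb20 lower, and against LβT2 Cebpa was lower and none of 17 was higher. The shares of all genes higher and lower were 1.84% and 1.77% against αT1–1 and 3.37% and 6.93% against αT3–1. Against LβT2 they were 5.5% and 6.55%. The counts of none were thus near the shares of all genes. Neurod4, a bHLH factor of somatotrope maturation, was at 24.8 RPKM in αT3–1 and 0.238 RPKM in TαT1. Ets1, an ETS factor that cooperates with PIT1 on the prolactin promoter in rat cells, was at 1.89 RPKM in TαT1 and 0.0287 RPKM or less in the other pituitary lines, and at 6.67 RPKM in NIH3T3. Satb1, a chromatin organizer, was at 0.408 RPKM or less in every line. The demethylase gene Kdm1a and the acetyltransferase genes Crebbp and Ep300, whose products PIT1 can recruit, were at 31.2 to 79.2, 4.15 to 12.7 and 4.18 to 18.0 RPKM in the pituitary lines, and in TαT1 none of these 3 differed 4-fold from αT1–1, αT3–1 or LβT2.

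**Figure D4:**
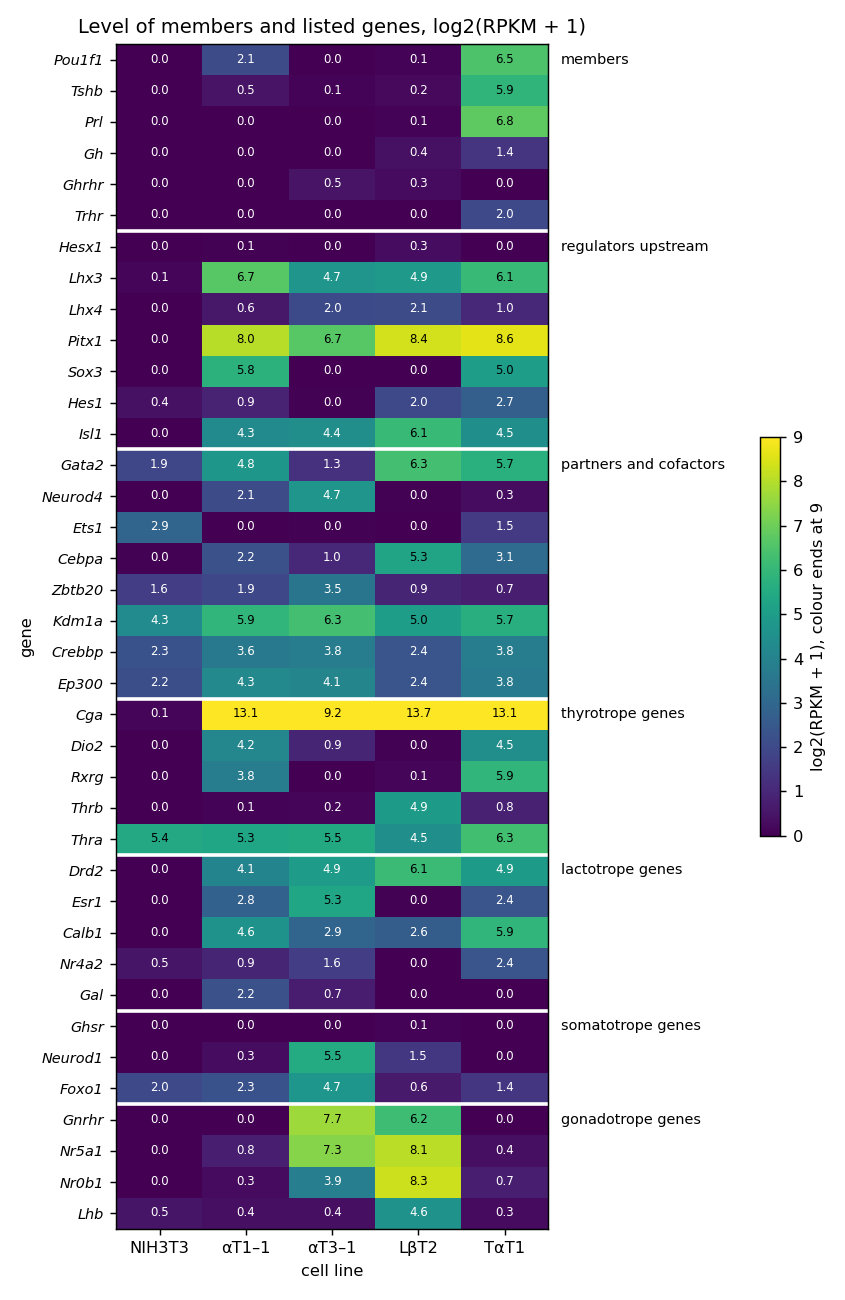
log2(RPKM + 1) of the 6 genes (members, top block) and of genes from 6 lists (rows) in the 5 lines (columns), with the value in each cell and colour ending at 9. The members are near 0 outside TαT1 apart from 2.1 for Pou1f1 in αT1–1, Lhx3, Pitx1 and Isl1 are present in all 4 pituitary lines, and Sox3, Dio2 and Rxrg are high in αT1–1 and TαT1.

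Genes that mark the 3 PIT1-dependent cell types were then set beside the members. All 6 thyrotrope markers (Tshb, Cga, Trhr, Dio2, Rxrg and Gata2) were at 1 RPKM or more in TαT1, while αT1–1 had 4 of them, LβT2 and αT3–1 had 2 each and NIH3T3 had 1, so TαT1 carried the markers of its label. Of the gonadotrope markers, TαT1 had Cga, the α subunit gene shared with TSH, at 8802 RPKM, and Gnrhr, Lhb, Fshb, Nr5a1 and Nr0b1 under 1 RPKM. Against αT1–1, 2 of 10 thyrotrope genes were higher (Tshb and Rxrg) and none lower, beside 1.84% and 1.77% of all genes. Against LβT2 3 of 11 were higher (Tshb, Dio2 and Rxrg) and Thrb lower, beside 5.5% and 6.55%. Rxrg, a retinoid X receptor of thyrotropes, was at 60.3 RPKM in TαT1, 12.7 RPKM in αT1–1 and 0.0907 RPKM in LβT2, and at 0 in αT3–1 and NIH3T3. As for Pou1f1, TαT1 came first and αT1–1 second, with the remaining lines at or near 0. Dio2, the deiodinase that makes active thyroid hormone, did not separate αT1–1 (17.1 RPKM) from TαT1 (20.9 RPKM), although these lines differed 153-fold in Tshb. Thrb, a thyroid hormone receptor gene, was at 29.2 RPKM in LβT2 and 0.753 RPKM in TαT1, and its paralog Thra at 75.5 RPKM in TαT1.

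The lactotrope markers Prl, Drd2 and Esr1 were all above 1 RPKM in TαT1, but only Prl was near 0 in the other lines. Drd2, the dopamine receptor that restrains prolactin release, was at 29.0 RPKM in TαT1, 15.8 RPKM in αT1–1, 29.5 RPKM in αT3–1 and 68.8 RPKM in LβT2. Esr1, the estrogen receptor, was at 4.24 RPKM in TαT1 and 39.1 RPKM in αT3–1, where Prl had 0 reads. Calb1, a calcium-binding protein gene, was at 59.0 RPKM in TαT1, 23.4 RPKM in αT1–1, 6.68 RPKM in αT3–1 and 5.27 RPKM in LβT2. Of the lactotrope list, 4 of 5 genes were higher in TαT1 than in LβT2 (Prl, Esr1, Nr4a2 and Calb1) and none lower. The shares of all genes there were 5.5% and 6.55%. Against αT3–1 2 of 6 were higher and 2 lower (Esr1 and Zbtb20), beside 3.37% and 6.93% of all genes. Against αT1–1 Prl alone of 7 was higher, and Gal was lower (0 in TαT1 and 3.75 RPKM in αT1–1). The shares of all genes in that comparison were 1.84% and 1.77%. Zbtb20, a zinc finger factor needed for lactotropes in the mouse, was at 0.679 RPKM in TαT1.

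Of the somatotrope genes, Ghsr, the ghrelin receptor, was at 0.0604 RPKM or less in every line, and Neurod1 was at 0 in TαT1 and 45.5 RPKM in αT3–1. Rxrg, also in this list, was its only gene 4-fold higher in TαT1 than in αT1–1 (of 6), αT3–1 (of 7) and LβT2 (of 6). Against αT3–1 Neurod4, Neurod1 and Foxo1 were lower, and none was lower against αT1–1 or LβT2. Over all genes, 1.84% were higher and 1.77% lower than in αT1–1, and 3.37% and 6.93% than in αT3–1. Against LβT2 the shares were 5.5% and 6.55%. Pomc, the corticotrope and melanotrope prohormone gene and thus a gene of PIT1-independent cells, was at 5.22 RPKM in TαT1, above Gh and Trhr, and at 0.0981 RPKM or less elsewhere. The corticotrope factor gene Tbx19 was at 0 in TαT1 and Pax7, of melanotropes, also. Crhr1, also a corticotrope marker, was at 5.16 RPKM in TαT1 and 7.72 RPKM in LβT2. Pcsk2, of the same list, was at 104 RPKM in TαT1 and 119 RPKM in αT1–1. Of 6 genes of the corticotrope and melanotrope list, Pomc alone was higher than in αT1–1 and none lower, beside 1.84% and 1.77% of all genes.

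Relatives of the members by sequence were read next. Of the 26 listed paralogs of prolactin, 25 were in the table and none reached 1 RPKM in any line. How reads with several alignments were handled is not given in the sources used here, so reads shared between paralogs may be missing from these values. Of the 15 POU factor genes, Pou1f1 had the largest log2 difference between TαT1 and the mean of the other pituitary lines (5.76), followed by Pou3f1 (3.01), which was at 15.2 RPKM in TαT1, 3.51 RPKM in αT1–1, 0.562 RPKM in αT3–1 and 0.160 RPKM in LβT2. The line order of Pou3f1 began as that of Pou1f1 did. Pou1f1 alone was higher than in αT1–1 by the 4-fold rule, of 6 POU genes at 1 RPKM or more, beside 1.84% of all genes. Among glycoprotein hormone subunits, Tshb alone was higher in TαT1 than in αT1–1 (of 3 at 1 RPKM or more) and LβT2 (of 4). Against αT3–1 Cga and Tshb were higher, of 3, and Lhb was lower than in LβT2. The shares of all genes higher were 1.84% against αT1–1, 3.37% against αT3–1 and 5.5% against LβT2. Against LβT2 6.55% of all genes were lower. Fshb and Gphb5 were listed at 0 in all lines.

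The genes that carry the signals of the receptors were counted in the same way. Over all genes, 1.84% were higher and 1.77% lower in TαT1 than in αT1–1, and 3.37% and 6.93% than in αT3–1. Against LβT2 the shares were 5.5% and 6.55%. Of 13 genes of the TRH receptor cascade at 1 RPKM or more, none differed 4-fold between TαT1 and αT1–1, which is near the share of all genes. Gnaq and Gna11, the G proteins that couple the TRH receptor, were at 20.1 and 107.7 RPKM in TαT1, and at 17.6 and 105.7 RPKM in αT1–1, where Trhr was at 0. Against αT3–1, none of 11 genes of this cascade was higher in TαT1 and 2 were lower (Plcb4 and Prkcd), and against LβT2 2 of 13 were higher (Prkca and Prkce) and 2 lower (Prkcb and Itpr3). Of the GHRH cascade, Gnas, the stimulatory G protein, was at 868 RPKM in TαT1, and the adenylyl cyclase gene Adcy3 was the only 1 of 14 higher than in αT1–1 (12.8 against 1.29 RPKM). None of 15 was higher than in αT3–1 and Adcy8 was lower, while Adcy1 and Adcy3 were higher than in LβT2 and Adcy5 lower, of 14. The cyclase gene Adcy2 was at 1.94 RPKM in TαT1 and at 0.0230 RPKM or less elsewhere. Adcy8 was at 52.9 RPKM in αT3–1 and at 0.358 RPKM or less elsewhere. TαT1 was also the highest line of Adcy1 (8.83 RPKM), Adcy3 (12.8 RPKM), Adcy6 (30.2 RPKM) and Adcy9 (4.76 RPKM). Adcy5 was highest in LβT2 and Adcy7 in NIH3T3. Receptors for the hormones themselves were near 0 in TαT1, with Prlr at 0 and Ghr at 0.0120 RPKM. Stat5a, a transcription factor that acts after both receptors, was at 55.6 RPKM there, 53.8 RPKM in αT3–1 and 45.2 RPKM in αT1–1. Its level was 9.50 RPKM in NIH3T3 and 5.07 RPKM in LβT2.

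Chromosomal neighbours were read to see whether levels followed the locus. Chmp2b, an endosomal sorting gene whose end lies 4.12 kb from that of Pou1f1 on the opposite strand, was at 148 RPKM in TαT1, 38.8 RPKM in αT1–1, 27.0 RPKM in αT3–1, 14.2 RPKM in NIH3T3 and 4.31 RPKM in LβT2. It was highest where Pou1f1 was highest, but well above 0 in the lines without Pou1f1. Htr1f, on the other side, was at 0 in all lines. Tspan2 spans Tshb on the opposite strand without sharing exon bases, and was at 11.5 RPKM in αT3–1, 6.93 RPKM in LβT2, 4.83 RPKM in TαT1 and 3.69 RPKM in αT1–1, not highest where Tshb was. Reads of the Tspan2 intron that holds the Tshb exons could not be told from those of Tshb.

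Around the other members levels differed from gene to gene. The nearest neighbours of Prl, Hdgfl1 and Prl3d1, were at 0.0743 RPKM or less in every line. Of the genes nearest to Gh, Cd79b (9.48 kb away) was at 0.0886 RPKM or less in every line, and Tcam1 (11.5 kb) was at 1.37 RPKM in αT1–1 and 0.444 RPKM in TαT1. Farther off, Scn4a, a sodium channel gene 16.7 kb from Gh, was at 4.62 RPKM in TαT1, 0.554 RPKM in αT1–1 and 0.0659 RPKM or less in the other lines, the same line at the top as Gh. Adcyap1r1, the PACAP receptor gene 63.4 kb beyond Ghrhr, was at 32.3 RPKM in αT3–1, 5.38 RPKM in LβT2, 0.0170 RPKM in TαT1 and 0 in αT1–1 and NIH3T3, so the 2 lines with Ghrhr reads were also the 2 with this gene. Aqp1, on the other side of Ghrhr, was at 486 RPKM in NIH3T3, where Ghrhr had no reads. The neighbours of Trhr, Tmem74 and Nudcd1, were not highest in TαT1.

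Fibroblast markers (10 genes) summed to 11386 RPKM in NIH3T3, where all 6 members had no reads, and to at most 35.8 RPKM in a pituitary line, a value reached in TαT1 with 2 of the 10 at 1 RPKM or more and 3 at 0. Their part in the members' levels was not tested. Of stretches of 36 bases, the read length, Prl, Gh, Ghrhr and Trhr shared none with transcripts of other annotated genes and Tshb shared 0.108%. Pou1f1 shared 4.87% over all its transcripts.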

How the data were processed

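RNA of 5 untreated mouse lines was made into TruSeq v2 libraries, read as single ends of 36 bases and aligned by the authors with CASAVA (version not given in the sources used here). The deposited unit is RPKM, computed by the authors from aligned reads. Genome build, gene annotation and the handling of reads with several alignments: not given in the sources used here. Lines were grouped by their labels, with 1 column each.

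Of the entries, 25 with a date in place of a name were left out, and 9 symbols were present repeatedly and were reduced to their highest entry by mean. No column was left out. The step of each column was taken as the fifth decimal of mean coverage per base, which gives its read total (18.8 M reads in TαT1, where M is 1000000; 18.7 M in LβT2, 20.7 M for αT3–1, 20.2 M for αT1–1, 14.2 M for NIH3T3). The shortest length from 150 to 15000 bp that gave whole reads in all lines was used, found for 91.5% of 17489 genes above 0. Reads are therefore the fewest that the values allow. Multiples of the length were also possible for Pou1f1, Tshb and Trhr and would give more reads and narrower intervals.

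Differences are of log2(RPKM + 1). The text names the 6 members, up to 4 genes of each of 14 lists with the largest difference of TαT1 from the mean of the other pituitary lines, list members whose role is needed, the 5 nearest genes and up to 2 coding neighbours on each side. Some listed genes are not reported here. Members and lists were chosen with earlier results of these data known. Annotation is GENCODE M21 on GRCm38, and promoters are from RefSeq, matched for 3 of 6 members. Alternatives were other pseudocounts, minimums and thresholds, scaling and ratios of reads. The steps were tested on simulated data. Scripts ran under SciPy 1.17.1, pandas 2.3.3, NumPy 2.4.6 and Python 3.11.15.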

Additional observations from a re-analysis of the deposited data

How the results depend on the processing

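No paired analysis was possible because each line has 1 column, and for the same reason no replicate could be left out. The count of members higher in TαT1 was 3 in each comparison under a pseudocount of 5 RPKM, median-of-ratios scaling and scaling to Actb. It was also 3 with no minimum and with a minimum of 5 RPKM, but these settings could not change it. Any gene past the 4-fold limit is above 1 RPKM, and the 3 members were at 58.5 RPKM or more in TαT1. With a pseudocount of 0.1 RPKM it was 5 against NIH3T3, αT1–1 and αT3–1 and 4 against LβT2, since Trhr and, outside LβT2, Gh then passed, and a 2-fold limit gave the same 5, 5, 5 and 4. Members restricted to TαT1 numbered 2 under all 4 alternatives. Over all genes the share higher in TαT1 moved with these settings. With a pseudocount of 0.1 RPKM, 508 genes were higher than in αT1–1 and 1182 than in LβT2, and with 5 RPKM 62 and 244, against 211 and 665. Scaling to Actb moved the median difference of all genes at 1 RPKM or more in either line. It became −0.21 against αT1–1, −0.48 against αT3–1, −0.63 against LβT2 and 0.98 against NIH3T3. Of 103 alternative values of the member differences, 43 moved beyond their counting interval. None was counted as reversed, but only differences of 2 or more could be so counted. A change of pseudocount cannot turn the sign of a difference, nor can scaling where a value is 0. The absence of reversals was thus largely fixed in advance. Depth limits Gh, Ghrhr and Trhr, and every member outside TαT1 except Pou1f1 in αT1–1.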
